A study of Mus musculus with 12 samples.

Results

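The nuclear genes for subunits of oxidative phosphorylation were followed through sorted mouse lung cells with or without bleomycin and with or without deletion of p300. Members were set by gene symbol, with earlier results of these data known. They were all symbols beginning with Nduf and a, b, c, s or v plus a digit, or with Uqcr, Cox4 to Cox8 or Atp5. Of the 23238 gene symbols in the count tables, 80 qualified, comprising 37 of complex I, 8 of complex III, 18 of complex IV and 17 of complex V. The symbols also take in Cox7a2l, a supercomplex assembly factor, Atp5s, a coupling factor, and Atp5sl, an older symbol for an assembly factor gene, and Ndufa4 is counted with complex I by its symbol although its product is now placed in complex IV. Complexes I, III and IV pass electrons from NADH to oxygen and pump protons out of the mitochondrial matrix, and complex V, the ATP synthase, uses the returning protons to make ATP. Most of their subunits are encoded in the nucleus, and a small hydrophobic core is encoded in mitochondrial DNA. Alveolar type II (ATII) cells make, store and recycle surfactant, which is work paid for largely by mitochondrial ATP.

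RNA was sequenced from ATII cells sorted as CD74-positive and EpCAM-positive cells, with 1 library from each of 12 mice and 3 mice in each of 4 groups. The paper's results give Con mice as floxed for p300 (Spc-p300 f/f) and treated with PBS. BLM mice are given the same genotype and received bleomycin into the trachea at 4 mg/kg. KO mice were Spc-p300 d/d with PBS, and KOBLM mice were Spc-p300 d/d with bleomycin. Bleomycin breaks DNA and injures the alveolar epithelium, and p300 is a histone acetyltransferase and transcriptional coactivator. Deletion of exon 9 of Ep300 was driven by a tamoxifen-inducible Cre under the surfactant protein C promoter. By design it was confined to cells using that promoter. The animal methods give mice aged 8 weeks and tamoxifen at 10 mg/kg. The sorting methods give 8 to 10 weeks, and name a standard strain and p300 knockout mice without mention of floxed alleles. The sample labels likewise call the Con and BLM mice wild type, so their genotype is not settled. They are called f/f below. A legend on sorted cells sets vehicle against tamoxifen, and which sequenced groups received tamoxifen is not stated.

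The 12 libraries held between 7005005 and 11153154 counts, and levels are given in CPM, the usual scaling of a count by its library's depth, with no division by transcript length. A gene was taken as detected above 3 counts, a floor that lay at 0.269 to 0.428 CPM and covers counting error only. Ep300 had 541 to 1341 counts in Con and 1113 to 1434 in the libraries labelled KO, and since the kit reads the 3′ end, far from exon 9, these counts check the genotype little. Summed CPM of 12 ATII markers lay between 184 and 2193, against 1366 to 43294 for 17 macrophage markers, a list that includes Lyz2, which ATII cells also express. Chil3 and Ctss each had more counts than Lyz2 in every library, with 330149, 46548 and 14938 counts in KO 3. In KOBLM 3, Sftpc had 5 counts, Sftpb 0 and Napsa 1365. The part of other cells in the libraries was not tested. In BLM 3, 68.9% of the ATII marker counts were of Etv5 alone. The library labelled BLM 3 stood apart. It had the fewest genes detected (6847, against 8790 to 13838 elsewhere), a Spearman correlation with the other BLM libraries of 0.473 and 0.478 across all genes (0.693 to 0.889 in the other pairs within a group), and 1410 CPM of 8 pluripotency markers, against 0.555 to 17.97 CPM elsewhere. Values without it are therefore given beside the calls and fold changes that it moved most. In these bulk samples, fewer cells of a type and less RNA per cell cannot be told apart.

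The 80 genes together took a small share of each library. Their counts summed to between 0.846% and 1.55% of the total. In summed CPM this was 11722 ± 2606 in Con, 12844 ± 556 in BLM, 12550 ± 2801 in KO and 11582 ± 2787 in KOBLM (SD, n = 3 each). All group means lay within the range of the libraries in Con, in KO and in KOBLM. The means of Con and KOBLM lay below the lowest BLM library, at 12382. In Con, KO and KOBLM the highest sum belonged to the library of that group with the fewest genes detected and the lowest share of Rn45s, the ribosomal RNA precursor, and the part of this in the sums was not tested. Of the 80 genes, 69 were above the floor in every library, 44 averaged over 100 CPM, 28 between 10 and 100 CPM, and 8 less. Cox7b2 and Cox8c, isoform genes of complex IV, had 0 counts in all 12 libraries, which allows up to the floor of each library.

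The shares of the complexes varied between libraries. Complex I held 27.4% to 35.4% of the member counts of a library, complex III 8.62% to 11.4%, complex IV 18.3% to 33.1% and complex V 28.2% to 35.0%. Summed over complex I, the libraries gave 3055, 2823 and 4021 CPM in Con and 4187, 4343 and 4486 CPM in BLM, and these groups did not overlap. Scaled by the TMM factors of the fits, which was tried after seeing the data, they did, at 2904, 2850 and 3746 in Con and 4258, 4820 and 3550 in BLM. The libraries labelled KO gave 3730, 3061 and 4779 CPM and those labelled KOBLM gave 2676, 3889 and 4052 CPM, both of which overlapped with Con. Summed complex IV stood at 3472, 3908 and 2316 CPM in BLM, lowest in BLM 3, and at 2925, 2692 and 4669 CPM in Con. For complexes III, IV and V all 4 groups overlapped. By mean CPM over the 12 libraries the leading members were Ndufb3 (261.5), Ndufa2 (257) and Ndufa6 (249.6) in complex I, Uqcrq (232), Uqcrh (229.5) and Uqcr10 (143.5) in complex III, Cox6a1 (616), Cox8a (530.3) and Cox6b1 (350.1) in complex IV, and Atp5g3 (1152), Atp5a1 (377) and Atp5b (358) in complex V.

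**Figure D1:**
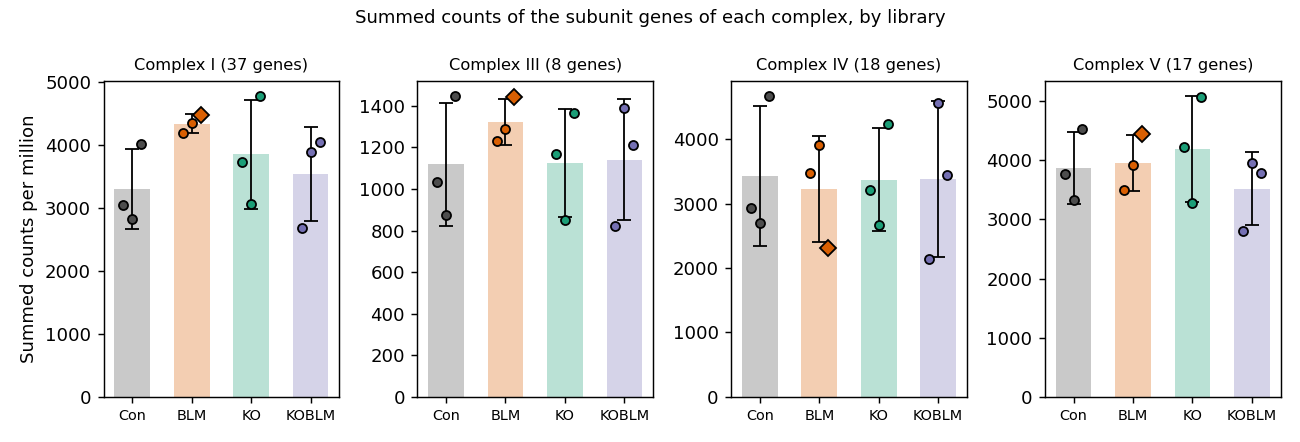
Summed CPM of the subunit genes of each complex (vertical axis) in the 4 groups (horizontal axis). Points are libraries, the diamond is BLM 3, bars are means and lines are SD over 3 mice; in complex I the BLM libraries, from 4187 to 4486, sit above all Con libraries, from 2823 to 4021, in plain CPM though not in TMM-scaled CPM, and in the other complexes the groups overlap.

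Single subunit genes varied less between mice than genes at large, which is given as a description without a test. The median SD within groups, on the log2 scale of scaled CPM, was 0.62 over the 76 members that passed the low-count filter and 2.21 over all 13054 genes that did. Among genes averaging over 100 CPM it was 0.56 for 44 members and 0.78 for 1968 genes in all. The 4 members below the filter were Cox7b2, Cox8b, Cox8c and Ndufa4l2. Of 72 members with a median over 10 CPM, 9 (12.5%) lay over 4-fold from their own median in BLM 3, against 57.9% of 8046 genes in all. In the other 11 libraries between 0 and 3 members (0% to 4.17%) did, against 1.83% to 24.6% of all genes. The share of all genes was highest there in KOBLM 2 (24.6%) and KO 3 (23.1%).

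Some members of complex I dropped out in a single library. Ndufc2, an accessory subunit of the membrane arm, had 0 counts in BLM 3 and 541 to 3160 elsewhere. Ndufs8, which holds iron-sulfur clusters in the arm facing the matrix, had 0 counts in KOBLM 2 and 73 to 1175 elsewhere. Ndufb11 and Ndufb6, 2 membrane-arm subunits, had 12 and 9 counts in BLM 3. At totals of 11153154 and 10381596 counts, a count of 0 allows up to 0.269 CPM in BLM 3 and 0.289 CPM in KOBLM 2.

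**Figure D2:**
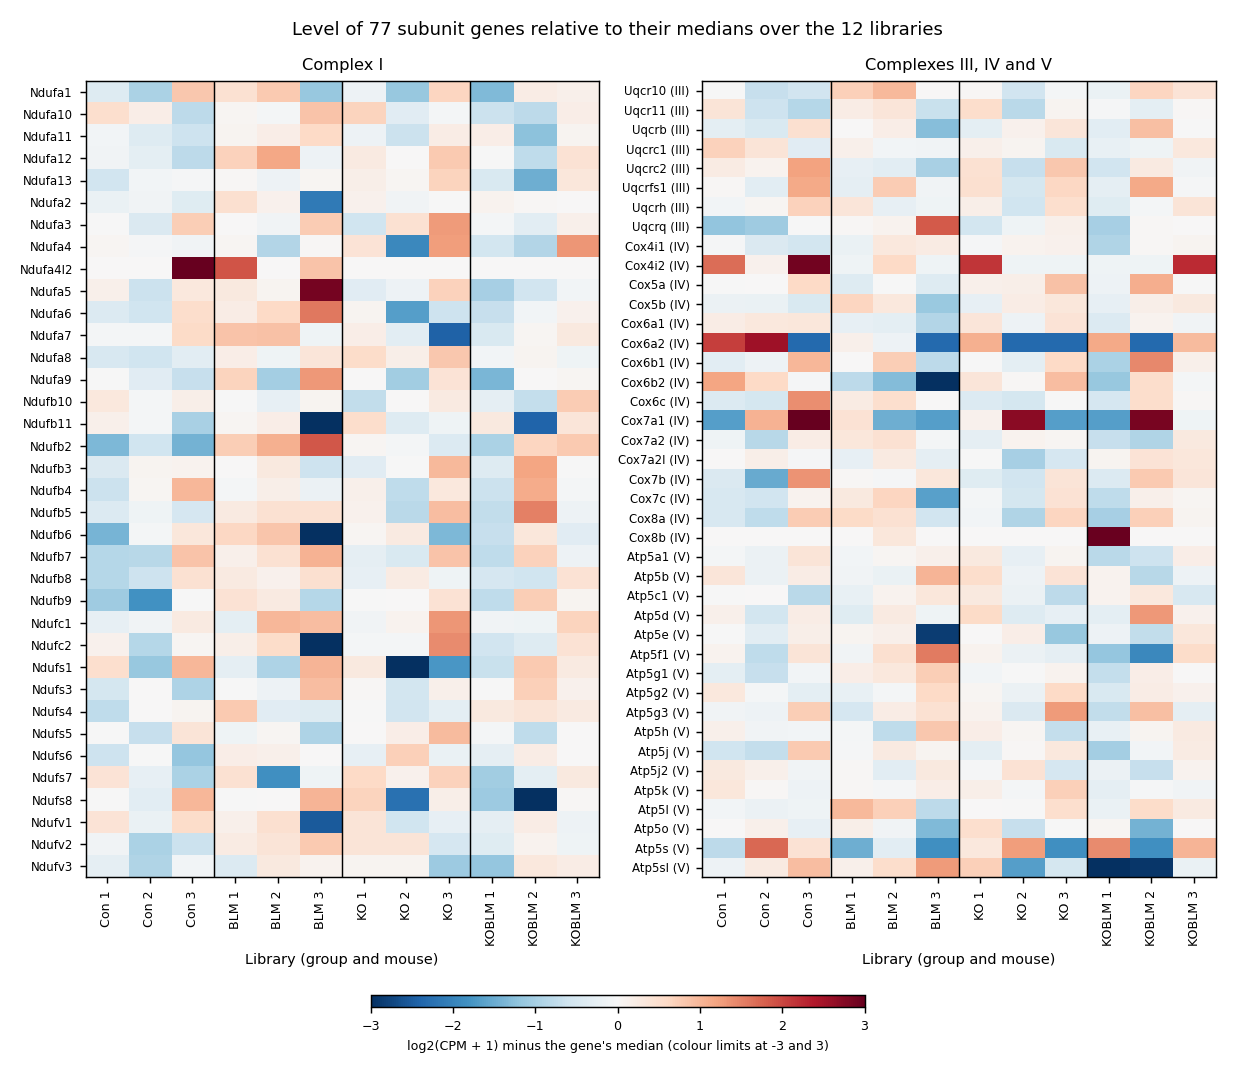
Level of 77 subunit genes (rows, by complex) in the 12 libraries (columns), as log2(CPM + 1) minus the gene's median over the libraries. Colours stop at -3 and 3. Dark cells include BLM 3 (low Ndufc2, Ndufb11 and Ndufb6, high Ndufa5), KOBLM 2 (low Ndufs8), Atp5sl in KOBLM and scarce isoforms of complex IV such as Cox7a1.

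**Figure D3:**
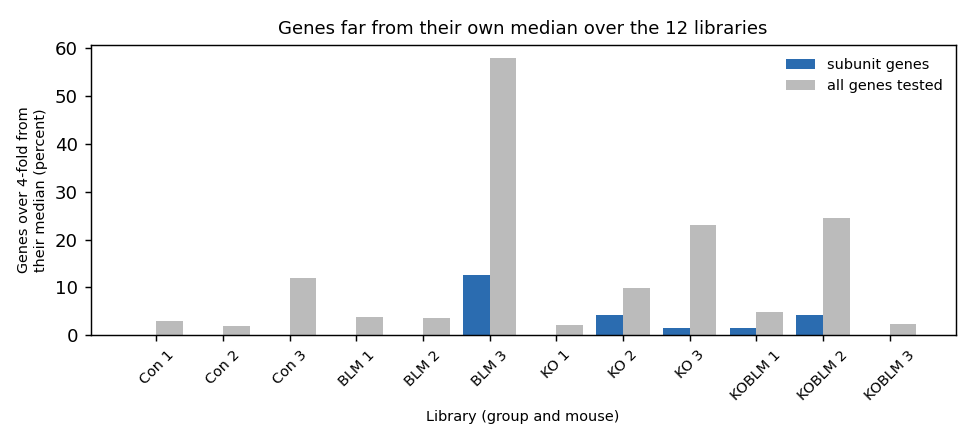
Percent of genes with a median over 10 CPM that lay over 4-fold above or below that median in each library (horizontal axis), for the 72 subunit genes and for 8046 tested genes in all. BLM 3 stands out in both sets, with 12.5% of the subunit genes and 57.9% of all genes.

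Bleomycin was compared with PBS in the mice without p300 deletion, BLM against Con, where few subunit genes were called. Uqcrq and Ndufb2 were called higher in BLM than in Con, and no member was called lower. Calls required edgeR's quasi-likelihood test to give p under 0.05 before adjustment together with a change of more than 1.5-fold. By this rule 2 of 76 members (2.63%) were called higher, against 2.19% of all 13054 genes, and 0 were called lower, against 2.08% of all genes. With Benjamini-Hochberg adjustment over all genes, 0 members had an adjusted p under 0.05 in edgeR, against 2 at an unadjusted p under 0.05. DESeq2 called 5 members higher (Ndufb2, Uqcrq, Ndufa5, Uqcr10 and Ndufv2) and 1 lower (Cox6b2), against 3.9% and 3.36% of all genes, with 0 past an adjusted p of 0.05.

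Uqcrq encodes a small subunit of complex III next to cytochrome b. It stood at 94.3, 102 and 217 CPM in Con and at 224, 234 and 778 CPM in BLM. All BLM libraries lay above all Con libraries, although BLM 1 lay just above Con 3, and BLM 3 was the highest of the 12. The log2 fold change was 1.496 (SE 0.57, edgeR p = 0.0196 with 0.995 after adjustment, exact permutation p = 0.1). Permutation tests here were two-sided, and 0.1 is the smallest p possible for 3 against 3. Without BLM 3 the log2 fold change was 0.89, without Con 1 it was 1.28 and without Con 2 it was 1.35, and in each case it no longer passed.

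Ndufb2, an accessory subunit of the membrane arm of complex I, stood at 9.63, 17.0 and 9.24 CPM in Con and at 44.5, 56.3 and 98.1 CPM in BLM. The groups were well apart, and the lowest BLM library lay above every Con library. The log2 fold change was 2.42 (SE 0.97, edgeR p = 0.0252 with 0.995 after adjustment, exact permutation p = 0.1). Without BLM 3 it was 2.21 and still past the threshold (edgeR adjusted p = 0.846), whereas without Con 1 (2.27), Con 3 (2.24) or BLM 2 (2.41) it no longer passed. Of the 75-nt windows in the last 300 nt of its longest coding transcript, 31.9% also occur in a transcript of the neighbouring Braf (strand not considered), and Braf itself stood at 61.5, 51.9 and 27.2 CPM in Con and 61.1, 50.9 and 6.90 CPM in BLM.

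Without BLM 3 the comparison called other members. Higher in BLM were then 7 of 77 members (9.09%), against 2.94% of 14084 genes tested, and 0 were lower, against 2.51%. They were Uqcr10 (log2 fold change 1.40), Atp5l (1.12), Ndufa12 (1.47), Ndufb2 (2.21), Cox5b (0.90), Cox7c (0.92) and Ndufb9 (1.29), which belong to all 4 complexes, and 0 had an adjusted p under 0.05 in edgeR. Atp5l, subunit g of the ATP synthase membrane part, stood at 123, 115 and 118 CPM in Con, 255 and 213 CPM in BLM 1 and BLM 2, and 74.96 CPM in BLM 3, the lowest of all libraries, and 59.7% of its 3′ windows recur in other genes, among them the pseudogene Gm4853. Cox7c, a small complex IV subunit, was also lowest of all libraries in BLM 3, at 95.5 CPM against 368 and 465 CPM in BLM 1 and BLM 2. Its counts are uncertain, since 70.4% of its 3′ windows recur in other genes, among them the processed pseudogene Gm10012, which itself had 114 to 367 CPM.

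Some members were separated between the groups without being called. In BLM, 9 of 76 members (11.8%) had all libraries above all Con libraries, against 5.32% of all genes, and 4 (5.26%) had all below, against 11.8% of all genes. The higher ones were Uqcrq, Uqcr10, Atp5g1 and 6 of complex I (Ndufa8, Ndufa11, Ndufb2, Ndufb5, Ndufs6 and Ndufv2). The lower ones were Cox5a, Cox6a1, Cox6b2 and Uqcrc2. Ndufv2, which holds an iron-sulfur cluster in the NADH-oxidising module, stood at 73.2, 40.2 and 50.04 CPM in Con and 92.8, 103 and 136 CPM in BLM (log2 fold change 1.02, SE 0.60, edgeR p = 0.112, exact permutation p = 0.1). Cox6a1, the most abundant of the complex IV members, stood at 713, 759 and 771 CPM in Con and 515, 494 and 333 CPM in BLM (log2 fold change -0.69, SE 0.41, edgeR p = 0.115, exact permutation p = 0.1), and without BLM 3 the log2 fold change was -0.43. Uqcrc2, a core subunit of complex III, stood at 142, 129 and 281 CPM in Con and 102, 96.7 and 60.4 CPM in BLM (-1.02, SE 0.58, edgeR p = 0.101, exact permutation p = 0.1), and all of its 3′ windows recur in a transcript listed under Pdzd9, so that its counts are uncertain.

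The spread of fold changes was narrower than among genes at large. The members were also more abundant, with a median average log2 CPM of 6.91, against 4.48 for all genes tested. The part of abundance in this was not tested, here or in the comparisons below. Between BLM and Con, 65.8% of the members tested lay within 1.5-fold either way, against 35.1% of all genes. The median log2 fold change of the members was 0.13, against -0.08 for all genes, and by complex it was 0.40 for complex I (36 genes), -0.12 for III, -0.10 for IV and 0.08 for V. Without BLM 3 these were 0.29 for all members, against 0.05 for all genes, and 0.52, 0.19, 0.11 and 0.11 for the complexes in the same order. Markers of other cells moved with the same contrast. The summed CPM of the ATII markers was 650 to 2193 in Con and 450 to 576 in BLM, that of 6 fibroblast markers was 91.2 to 457 in Con and 1134 to 1839 in BLM, with Lum at 0 in these 6 libraries, and that of the macrophage markers was 14488 to 28141 in Con and 1366 to 14796 in BLM. That last sum hides markers that ran the other way, such as C1qa (in counts, 80, 218 and 0 for Con against 6657, 7249 and 182 for BLM) and Msr1 (75, 69 and 158 against 3085, 2483 and 0). The ATII sum hides such a marker too. Napsa reached 1498 counts in BLM 1 and 2183 in BLM 2, above every Con library (429 to 1137). In BLM 3, Napsa had 580 counts and Etv5 had 4424. Sftpc, by contrast, had at most 822 counts in a BLM library and at least 1472 in a Con library. For Sftpb these limits were 666 and 1494. The part of these markers in the values of the members was not tested.

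**Figure D4:**
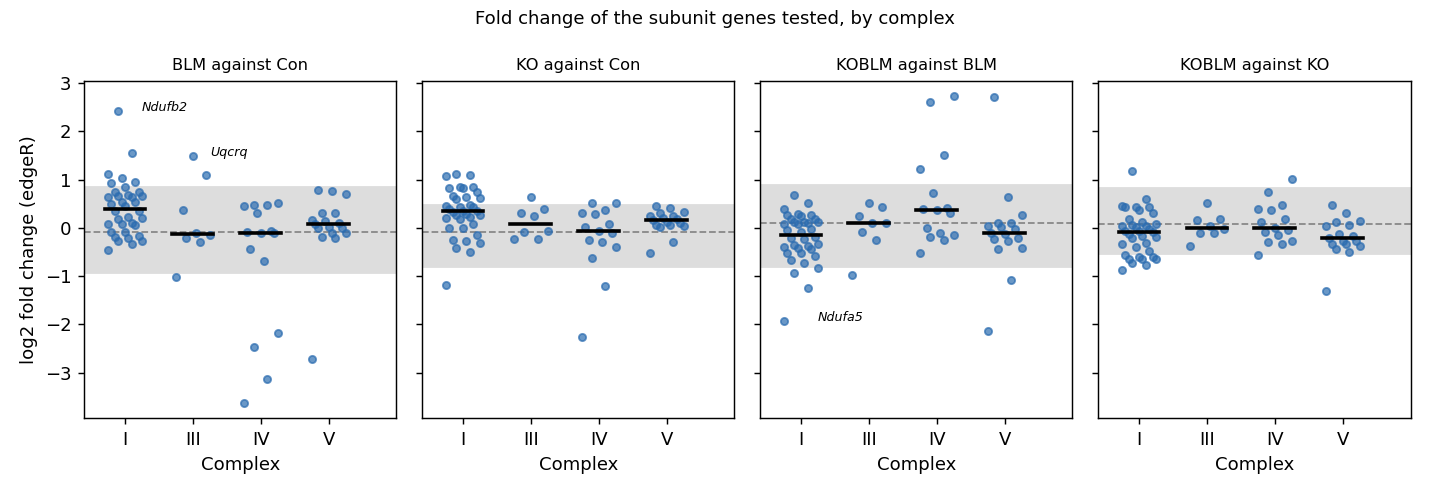
Log2 fold change of each tested subunit gene (points) by complex in 4 comparisons, with the median of each complex as a black bar. The grey band is the interquartile range and the dashed line the median of all 13054 genes; the complex I median lies at 0.40 between BLM and Con, and the called genes Ndufb2, Uqcrq and Ndufa5 are named.

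The libraries labelled KO were compared with Con for the effect of p300 deletion without injury. Here 0 of 76 members were called in either direction, against 0.536% of all genes higher and 0.904% lower, and 0 had an unadjusted p under 0.05 in edgeR. DESeq2 called 1 higher, Ndufa8, against 1.18% of all genes, and 0 after adjustment. Leaving out KO 1 led edgeR to call 1 member lower, Ndufs1, against 2.62% of all genes. In 6 members (7.89%) all KO libraries lay above all Con libraries, against 2.18% of all genes, and in 0 did all lie below, against 7.56%. The 6 were Ndufa8, Ndufa12, Ndufa13, Ndufb2, Atp5g1 and Atp5l. After Ndufa8, the smallest p belonged to Ndufb9 (log2 fold change 1.06, SE 0.69), Ndufs6 (0.84, SE 0.58), Ndufv2 (0.83, SE 0.60) and Ndufa12 (0.85, SE 0.63), all of complex I. Ndufs6, needed late in complex I assembly, stood at 84.0, 130.03 and 57.4 CPM in Con and 110.3, 213 and 113 CPM in KO, with overlap. The median log2 fold change was 0.23, against -0.09 for all genes, with 0.35 for complex I, 0.09 for III, -0.06 for IV and 0.16 for V, and 77.6% of members lay within 1.5-fold, against 47.5% of all genes. On library size alone, which lowers the median of all genes by 0.12, the median of the members was 0.13. The comparisons of BLM and of KO share the Con mice, so their values are not independent.

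Ndufa8, an accessory subunit of complex I on the side of the intermembrane space, was the member with the smallest p in this comparison. It stood at 66.7, 61.3 and 75.3 CPM in Con and 138, 107 and 164 CPM in KO, a log2 fold change of 1.10 (SE 0.52, edgeR p = 0.0508, 1 after adjustment, exact permutation p = 0.1). In BLM it stood at 107, 85.5 and 122 CPM and in KOBLM at 88.6, 99.6 and 86.0 CPM. All libraries of both groups thus lay above all Con libraries, and all KOBLM libraries lay below all KO libraries. Of the 76 members it was the 1 that separated both ways with bleomycin, higher in f/f and lower in d/d mice or the reverse, as 0.391% of all genes did. Atp5g1, which encodes the c subunit of the ATP synthase ring, lay close together in KO, at 84.0, 87.1 and 95.5 CPM, just above Con at 72.1, 54.6 and 83.9 CPM (0.46 on the log2 scale, SE 0.55, edgeR p = 0.42, exact permutation p = 0.1).

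KOBLM against BLM compared the genotypes under bleomycin, and it also holds any difference between the genotypes without injury. Whether the response to bleomycin differed is the question of the interaction term given further below. Ndufa5 was called lower in KOBLM, and no member was called higher. This was 1 of 76 members (1.32%) lower, against 1.78% of all genes, and 0 higher, against 1.39%, and 0 were past an adjusted p of 0.05 in edgeR, with 1 at an unadjusted p under 0.05. DESeq2 called the same gene and no other, against 3.26% of all genes lower. Ndufa5, a subunit of the arm of complex I facing the matrix, stood at 75.9, 65.3 and 461 CPM in BLM and 30.5, 41.1 and 58.9 CPM in KOBLM. The groups did not overlap, but BLM 3 lay above every other library and BLM 1 and BLM 2 lay close to the Con values of 69.1, 39.2 and 77.8 CPM. The log2 fold change was -1.93 (SE 0.75, edgeR p = 0.0215, 1 after adjustment, exact permutation p = 0.1). Without BLM 3 it was -0.72, without KOBLM 1 it was -1.66 and without KOBLM 2 it was -1.84, none of them past the threshold, and without KOBLM 3 edgeR called 3 members lower (Atp5f1, Atp5sl and Ndufa5), against 1.59% of all genes. Without BLM 3, 0 members were called, against 1.76% of all genes higher and 1.58% lower, and 0 had an unadjusted p under 0.05 in edgeR.

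All KOBLM libraries lay below all BLM libraries in 6 members (7.89%), against 4.98% of all genes, and above in 0, against 6.04%. These were Ndufa5, Ndufa6, Ndufv2, Uqcrq, Atp5k and Atp5sl. Uqcrq stood at 109, 221 and 217 CPM in KOBLM, below the 224 CPM of BLM 1 by a small margin, and its log2 fold change was -0.97 (SE 0.56, edgeR p = 0.104, exact permutation p = 0.1) with BLM 3, its highest library at 778 CPM, and -0.37 without it. Ndufv2 stood at 61.0, 83.5 and 71.1 CPM in KOBLM, also below the 92.8 to 136 CPM of BLM, with a log2 fold change of -0.51 (SE 0.60, edgeR p = 0.406, exact permutation p = 0.1). Atp5sl was scarce, with counts of 126, 179 and 448 in BLM against 7, 13 and 125 in KOBLM, and its log2 fold change was -2.15 (SE 1.53, edgeR p = 0.181, exact permutation p = 0.1). Of the other members with the smallest p here, Ndufa6 of the matrix arm had -0.93 (SE 0.55), the stator subunit gene Atp5f1 -1.07 (SE 0.70) and Cox5a 0.72 (SE 0.48), which without BLM 3 were -0.64, -0.70 and 0.55, the last with 54.9% of its 3′ windows recurring in another gene. The median log2 fold change of the members was -0.02, against 0.10 for all genes, with -0.14 for complex I, 0.10 for III, 0.37 for IV and -0.11 for V, and 77.6% of members lay within 1.5-fold, against 35.9% of all genes. Without BLM 3 the median was -0.26 over 77 members, against -0.06 for all genes. The sum of the fibroblast markers also separated these groups, at 1839, 1223 and 1134 CPM in BLM and 521, 658 and 157 CPM in KOBLM. Within that list Col1a2 and Col3a1 separated too. Dcn (in counts, 728, 830 and 0 for BLM against 199, 701 and 75 for KOBLM) and Col1a1 (2609, 1512 and 6080 against 371, 2538 and 101) overlapped. The ATII marker sums overlapped (450 to 576 against 184 to 682 CPM), and the part of both lists in these values was not tested.

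**Figure D5:**
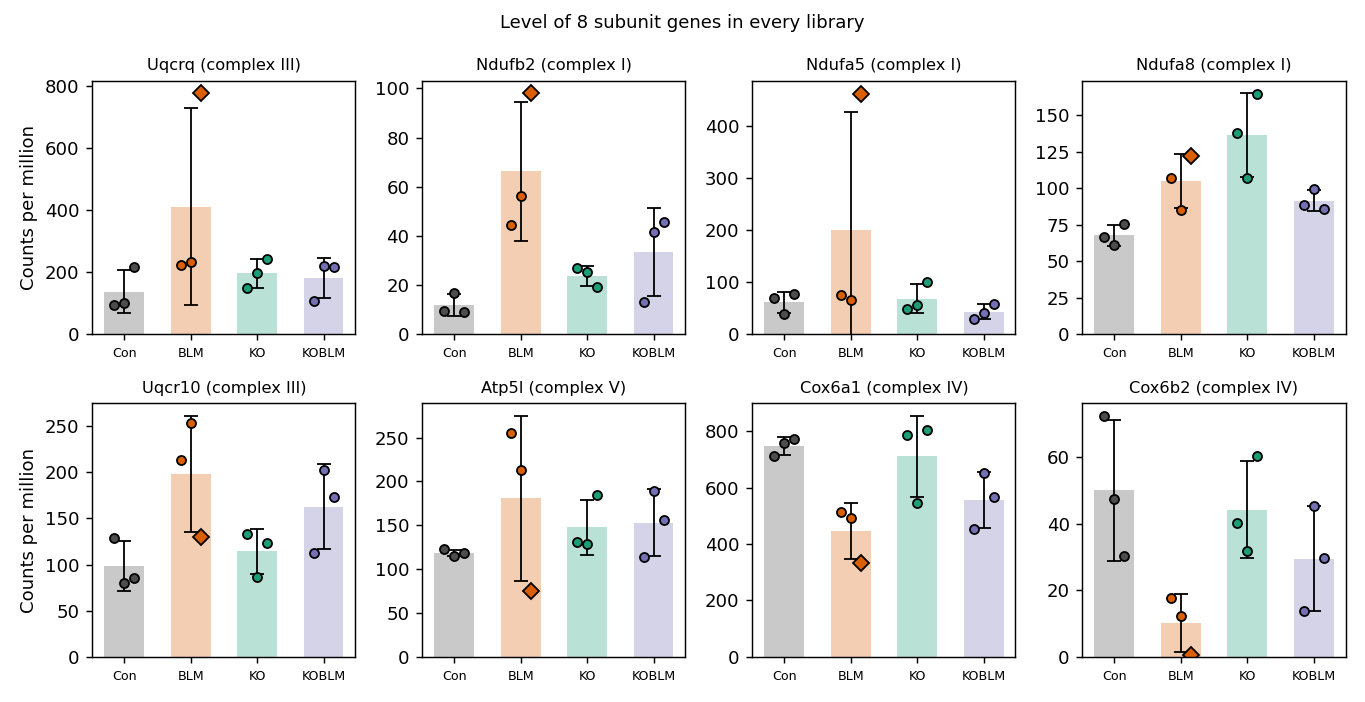
CPM of 8 subunit genes (vertical axis) in the 4 groups (horizontal axis). Points are libraries, the diamond is BLM 3, bars are means and lines are SD over 3 mice; BLM 3 is the highest library for Uqcrq, Ndufb2 and Ndufa5 and the lowest for Atp5l, Cox6a1 and Cox6b2.

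KOBLM against KO gave the effect of bleomycin in mice labelled as p300-deleted. Called members numbered 0 in either direction, against 1.16% of all genes higher and 0.529% lower, with 0 at an unadjusted p under 0.05 in edgeR and 0 called by DESeq2. Cox7a2l and Ndufs4 had all KOBLM libraries above all KO libraries (2.63% of members, against 3.95% of all genes), and Ndufa8 and Ndufs5 had all below (2.63%, against 2.87%). Cox7a2l stood at 146, 72.9 and 103 CPM in KO and 154, 196 and 187 CPM in KOBLM (log2 fold change 0.74, SE 0.51, edgeR p = 0.17, exact permutation p = 0.1). Ndufs1, the largest core subunit of complex I, was lowest in KO 2 and KO 3, at 74.7, 3.98 and 17.4 CPM in KO and 37.9, 105 and 73.2 CPM in KOBLM, and its log2 fold change of 1.18 (SE 0.98) became 2.86 and was called without KO 1, as 2.55% of all genes were in that direction. Atp5b, the catalytic beta subunit of the ATP synthase, had -0.51 (SE 0.45), and Ndufa3, a membrane-arm subunit, -0.60 (SE 0.54). The median log2 fold change was -0.08, against 0.08 for all genes, with -0.08 for complex I, 0.01 for III, -0.01 for IV and -0.22 for V, and 82.9% of members lay within 1.5-fold, against 44.8%.

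Whether bleomycin acted differently by genotype was tested with an interaction term, the log2 change in mice labelled p300-deleted minus that in the others. It called 0 members, against 1.51% of all genes higher and 1.31% lower, with 0 at an unadjusted p under 0.05 in edgeR, and DESeq2 called 4 lower (Ndufa5, Ndufa8, Uqcrq and Ndufb2), against 2.41% of all genes, 0 of them after adjustment. The nearest in edgeR were Ndufa5 (-2.16, SE 1.03) and Uqcrq (-1.61, SE 0.79), both with an adjusted p of 1, which without BLM 3 were -0.951 and -0.999. The median interaction of the members was -0.37, against 0.23 for all genes, with -0.62 for complex I, 0.23 for III, 0.46 for IV and -0.28 for V. Without BLM 3, edgeR called 3 members lower (Ndufa12, Ndufa8 and Atp5l, 3.90% of 77, against 2.44% of all genes) and 0 higher, against 2.19%, and 0 had an adjusted p under 0.05. Their interactions were -1.86, -1.21 and -1.06, and the medians were -0.50 for the members and 0.06 for all genes.

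Nuclear respiratory genes are known to be served by a few shared factors, and the promoters of 4 members are shown. These are the called members Ndufb2 and Ndufa5, Ndufa8, whose groups separated in 3 comparisons, and Atp5l, which was called without BLM 3 and was picked after its matches were seen as an example with several. RefSeq sequences of 250 bases before and 50 bases after the start site (GRCm38.p6) were matched for 66 of the 80 members, Uqcrq not among them, and for 27025 genes in all. They were searched on both strands for GCGCATGCG, a core of the nuclear respiratory factor 1 (NRF1) site, CCGGAAG, an ETS site of the kind bound by GABPA, and AAGATGGCG, a YY1 site. The NRF1 letters are nearly palindromic, so that 1 element can match on both strands, and the last letters of the ETS motif can be the first of the YY1 motif. Capitals mark the matches. The sequences are Ndufb2 (chr6:39592315-39592614, plus strand), Ndufa5 (chr6:24527641-24527940, minus strand, the upstream of its 2 listed start sites), Ndufa8 (chr2:36049289-36049588, minus strand) and Atp5l (chr9:44920693-44920992, minus strand).
Ndufb2: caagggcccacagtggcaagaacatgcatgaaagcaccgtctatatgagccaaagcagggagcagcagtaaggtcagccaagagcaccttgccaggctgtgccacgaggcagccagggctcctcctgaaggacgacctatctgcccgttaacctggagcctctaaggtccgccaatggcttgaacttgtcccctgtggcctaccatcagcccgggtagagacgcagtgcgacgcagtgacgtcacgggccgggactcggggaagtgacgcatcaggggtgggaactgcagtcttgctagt
Ndufa5: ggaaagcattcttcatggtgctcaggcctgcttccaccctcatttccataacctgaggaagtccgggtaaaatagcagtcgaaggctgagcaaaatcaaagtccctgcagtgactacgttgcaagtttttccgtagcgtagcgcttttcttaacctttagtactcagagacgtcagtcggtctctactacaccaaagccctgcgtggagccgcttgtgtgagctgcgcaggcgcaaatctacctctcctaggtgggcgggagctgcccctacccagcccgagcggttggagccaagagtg
Ndufa8: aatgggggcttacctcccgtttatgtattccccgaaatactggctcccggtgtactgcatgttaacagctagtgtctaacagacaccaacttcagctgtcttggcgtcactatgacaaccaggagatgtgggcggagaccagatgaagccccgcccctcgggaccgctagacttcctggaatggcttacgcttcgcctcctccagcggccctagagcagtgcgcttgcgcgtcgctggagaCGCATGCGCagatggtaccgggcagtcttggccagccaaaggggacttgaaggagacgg
Atp5l: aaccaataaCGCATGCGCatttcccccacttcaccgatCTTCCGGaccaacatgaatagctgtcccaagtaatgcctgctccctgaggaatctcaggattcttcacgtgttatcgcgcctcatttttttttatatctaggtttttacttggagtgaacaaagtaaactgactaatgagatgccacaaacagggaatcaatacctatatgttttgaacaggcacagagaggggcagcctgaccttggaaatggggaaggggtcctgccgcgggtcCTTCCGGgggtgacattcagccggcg

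Ndufa8 held an NRF1 match beginning 9 bases before the start site, and Atp5l held an NRF1 match and 2 ETS matches, whereas these letters did not occur in the windows of Ndufb2 and Ndufa5. Among the 66 members, 8 (12.1%) held the NRF1 letters, against 1.95% of all genes, 14 (21.2%) the ETS letters, against 9.93%, and 8 (12.1%) the YY1 letters, against 1.64%. At least 1 of the 3 occurred in 25 members (37.9%), against 12.7% of all genes, and the median GC content was 57.2% for the members and 53.3% for all genes. The 8 with NRF1 letters came from all 4 complexes (Ndufa8, Ndufa11, Uqcr11, Uqcrc1, Cox6a1, Atp5g2, Atp5k and Atp5l), and the YY1 letters were found in 5 members of complex I, 3 of complex V and 0 of III and IV. A match is a description of the letters and not of a factor bound there. Of the called members, Uqcrq lies at chr11:53427922-53430831, Ndufb2 at chr6:39592574-39603382 and Ndufa5 at chr6:24518666-24528013 in the GENCODE M21 annotation of GRCm38, and all are protein-coding. Within the last 300 nt of the longest coding transcript, 17 of 79 members had at least 1 window of 75 nt that recurs in another gene, and 5 had over 50% of windows shared (Atp5l, Cox5a, Cox7c, Ndufb6 and Uqcrc2), whereas Uqcrq, Ndufa5 and Ndufa8 had none.

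Paired isoform genes showed which forms these bulk libraries held. The kit primes at the poly(A) tail, so that counts do not grow with transcript length. Cox4i1 carried nearly all counts of subunit 4, with Cox4i2, the lung and hypoxia isoform, at 0% to 3.62% of the pair and at 0 counts in 6 libraries. Cox6a2, a heart and muscle isoform, held 0% to 3.61% of its pair with Cox6a1, and Cox8b, another muscle isoform, was above the floor only in KOBLM 1, with 51 counts. Cox7a1, the muscle form of subunit 7a, held 0% to 14.1% of its pair with Cox7a2. Its levels within a group scattered widely, at 0, 5.45 and 27.3 CPM in Con and 0, 21.6 and 1.88 CPM in KOBLM. Striated muscle markers (9 genes) summed to 0.222 to 71.5 CPM over the 12 libraries. The larger sums rested on few of them. Actc1 had 698 counts in KOBLM 2 and 725 in BLM 3, Tnni3 had 290 in KO 3, and Ckmt2 and Mb had 0 in all 12 libraries. The 9 markers summed to 67.3 CPM in KOBLM 2 and 9.06 CPM in KO 2, where Cox7a1 was at 21.6 and 19.5 CPM, and to 71.5 CPM in BLM 3 and 37.6 CPM in KO 3, where Cox7a1 had 0 counts. Their part in Cox7a1 was not tested. Ndufa4l2, a hypoxia-induced relative of Ndufa4, reached 23.3 CPM in Con 3 and was at 0 in 9 libraries.

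Cox6b2, known as the testis form of subunit 6b, was the one alternative isoform found in all 12 libraries, from 0.376% to 24.0% of its pair with Cox6b1. It stood at 72.5, 47.3 and 30.4 CPM in Con, 17.7, 12.1 and 0.628 CPM in BLM, 40.3, 31.9 and 60.3 CPM in KO and 13.6, 45.2 and 29.7 CPM in KOBLM. All BLM libraries lay below all Con libraries, and the other groups overlapped with Con. The log2 fold change of BLM against Con was -2.18 (SE 1.16, edgeR p = 0.0817, exact permutation p = 0.1) and -1.62 without BLM 3, and DESeq2 gave -2.21 with an adjusted p = 0.554 while its unadjusted p passed. All 6 male germ cell markers had 0 counts in every library. Cox6b1 stood at 229, 261 and 572 CPM in Con and 289, 479.9 and 166 CPM in BLM, with wide overlap. Of the 3 genes for the ATP synthase c subunit, whose mature protein is the same, Atp5g3 held 74.3% to 88.4% of the counts, Atp5g2 7.02% to 16.9% and Atp5g1 3.54% to 10.99%.

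Other mitochondrial genes were counted in lists for comparison. Between BLM and Con, edgeR called 2.19% of all genes higher and 2.08% lower. In complex II, the succinate dehydrogenase that feeds electrons to ubiquinone, 1 of 4 genes was higher and 1 lower in BLM than in Con. Sdhb, its iron-sulfur subunit, stood at 116, 61.3 and 114 CPM in Con, 185, 174 and 433 CPM in BLM, 147, 130.1 and 115 CPM in KO and 72.4, 68.5 and 121 CPM in KOBLM. The BLM libraries lay above all libraries of the other groups. Sdhb was higher in BLM than in Con (log2 fold change 1.39, SE 0.55, edgeR adjusted p = 0.995) and lower in KOBLM than in BLM (-1.41, SE 0.55, edgeR adjusted p = 1), 2 comparisons that share the BLM mice. Its interaction was -1.98 (SE 0.77, edgeR adjusted p = 1), and without BLM 3 all 3 calls held, at 1.04, -1.06 and -1.63. Sdha, the flavoprotein subunit of the same complex, went the other way, at 186, 154 and 335 CPM in Con and 99.9, 82.1 and 29.1 CPM in BLM (log2 fold change -1.57, SE 0.64, edgeR adjusted p = 0.995).

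Between BLM and Con, edgeR called 0 of the tested assembly factor genes, which were 13 for complex I, 5 for III, 22 for IV and 3 for V. Of all genes it called 2.19% higher and 2.08% lower. It also called 0 of 12 regulators of nuclear respiratory genes, 0 of 14 import and outer membrane genes and 0 of 5 subunit and cytochrome c genes outside the symbol rule. Of 16 genes of the tricarboxylic acid cycle, Suclg1 was higher and Ogdh lower (edgeR adjusted p = 0.995 for each). Suclg1, a subunit of succinyl-CoA ligase, stood at 40.0, 58.2 and 27.0 CPM in Con and 87.5, 104 and 269 CPM in BLM, and its log2 fold change of 1.79 became 1.33 and was no longer called without BLM 3. Of 77 mitochondrial ribosomal protein genes, Mrpl52 was higher (edgeR adjusted p = 0.995), also without BLM 3. Ogdh, a subunit of the 2-oxoglutarate dehydrogenase complex, stood at 234, 192 and 153 CPM in Con and 60.8, 43.3 and 163 CPM in BLM, and without BLM 3 it was also lower. In KOBLM against BLM, 3 of 14 import and membrane genes were lower, against 1.78% of all genes. They were Tomm40, the channel of the outer membrane, Hspd1, the matrix chaperonin, and Phb2, a prohibitin, and 0 had an adjusted p under 0.05 in edgeR. Hspd1 stood at 74.2, 88.6 and 1080 CPM in BLM and 69.7, 97.6 and 107 CPM in KOBLM. Without BLM 3 only Tomm40 was called lower, against 1.58% of all genes. In KO against Con and in KOBLM against KO, 0 genes of these lists were called by edgeR. Of all genes, 0.536% were called higher and 0.904% lower in the first, and 1.16% and 0.529% in the second. The 13 mitochondrially encoded subunits were not analysed here.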

How the data were processed

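RNA of sorted ATII cells was sequenced with a 3′ end kit (QuantSeq, single end). The deposited files hold raw counts per gene, which the authors made from aligned reads, and the submitters' processing notes name Bowtie2, edgeR and mm10. Strand setting and the treatment of reads with several matches are not given in the sources used here. Counts were added up where a symbol was listed repeatedly (79 entries, 35 symbols). Totals ran from 7005005 to 11153154 counts, and the detection floor was 3 counts, which covers counting error only.

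Genes were filtered with filterByExpr (minimum count 10, minimum total 15) and fitted in edgeR 4.0.16 (R 4.3.3) by the quasi-likelihood test on all 12 libraries with TMM factors, 1 coefficient per group and no covariate. A gene was called at a fold change above 1.5 with unadjusted p below 0.05, and Benjamini-Hochberg values over all genes tested stand beside it. Groups had 3 mice each. The p-values of the fits rest on a spread estimated over all 12 libraries, BLM 3 included, and moderated across genes. They do not measure the spread within the compared groups alone. For Ndufa8 the pooled SD within groups was 0.092 on the log2 scale, and the SE of KO against Con was 0.52. The code was tested on simulated data. Alternatives were DESeq2 1.42.0, its size factors, library size alone, totals without Rn45s, no filter, only the groups compared, adjusted p, a replicate block and leaving out each library. TMM-scaled CPM for groups that do not overlap was chosen after seeing the data. Positions came from GENCODE M21 (GRCm38) and promoters from RefSeq (GRCm38.p6), read with Python 3.11.15.

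The members and gene lists were chosen with earlier results of these data known. Named with values were members called in any comparison, the 5 with the smallest p per comparison, the 3 most abundant per complex, isoform groups and called genes of the lists. Other members named for separated groups, for a low count in 1 library or for calls under an alternative were chosen after their values were seen. The values of 1 member are not reported here by name, and it stays in the sums and counts.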

Additional observations from a re-analysis of the deposited data

Results flagged for a closer look

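Ndufa8, an accessory subunit gene of complex I, was the 1 member whose bleomycin and PBS groups separated in opposite directions in f/f and d/d mice. Of all genes tested, 0.391% showed this pattern in either direction. All BLM libraries (85.5 to 122 CPM) lay above all Con libraries (61.3 to 75.3 CPM), and all KOBLM libraries (86.0 to 99.6 CPM) lay below all KO libraries (107 to 164 CPM). The interaction (log2 effect of bleomycin in d/d mice less that in f/f mice) was -1.19 (SE 0.72, edgeR adjusted p = 1) and did not pass the threshold. It was -1.21 without BLM 3 and -1.30 in DESeq2 (DESeq2 adjusted p = 0.88), where it passed before adjustment and not after.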

How the results depend on the processing

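The medians of the members kept within 1 SD of their spread between mice (0.30) in all 28 values under other settings and all 24 without 1 library. That SD is larger than the size of each main median, so a change of sign would also have been kept. Without 1 library the median ran from 0.01 to 0.34 for BLM against Con and from 0.17 to 0.34 for KO against Con. It ran from -0.26 to 0.12 for KOBLM against BLM and from -0.26 to 0.09 for KOBLM against KO. Counts of called members also moved, and the cause was not tested. Between BLM and Con the count of 2 became 1 with no filter on low counts, 6 with DESeq2 and 0 by adjusted p, and ran from 0 (without Con 1) to 7 (without BLM 3) when 1 library was left out. Between KO and Con, 0 became 1 with DESeq2, with its size factors, with totals without Rn45s and with only the groups compared, each time Ndufa8, and 0 to 1 without 1 library. Between KOBLM and BLM, 1 became 0 with only the groups compared and by adjusted p, and 0 (without BLM 3, KOBLM 1 or KOBLM 2) to 3 (without KOBLM 3). Between KOBLM and KO it ran from 0 to 1 (without KO 1). The interaction count of 0 became 2 with DESeq2 size factors and 4 with DESeq2, and ran from 0 to 3 (without BLM 3).

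Same-numbered mice of different groups did not deviate together (18 pairs, r from -0.117 to 0.0960, 0 of them over 0.1). No sign of pairing by number was thus seen, which does not exclude it. The replicate block moved the interaction count to 1 (Uqcrq) and left the other counts within 1.5 times. It shifted the median of all genes by 0.29 in the interaction. In TMM-scaled CPM, chosen after seeing the data, 10 members rather than 6 had all KO above all Con libraries, against 3.32% of all genes. On the same scale the complex I sums of BLM and Con overlapped.

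With 3 mice a group, small changes could not be told from the spread. The median biological coefficient of variation was 0.607 for the members and 1.35 for all genes.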
